A study of Homo sapiens with 6 samples.

Results

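Peaks of accessible chromatin were examined around 2 genes, SESN3 and PMF1. At the start of each lay a region with a listed peak in every control library and in no chimera library, called control-only here. Beside it, at both genes, lay a region with a peak in all 6 libraries. The members were all listed peaks that overlapped a window around either gene, chr11:94849000-95016000 for SESN3 and chr1:156133000-156263000 for PMF1. These were 140 of the 589440 peaks of the series, and they merged into 32 of its 149765 regions, 20 around SESN3 and 12 around PMF1. The genes were selected on the presence pattern at their starts in these same libraries, so that pattern is described here and carries no test.

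The data came from H1155, a human lung carcinoma cell line, in which open chromatin was mapped by ATAC-seq, an assay in which a transposase cuts and tags accessible DNA. Nuclei were prepared by the Omni-ATAC protocol. There were 3 libraries of cells with the genotype control and 3 of cells with the genotype chimera, which the titles call TA, labelled as biological triplicates. The labels say neither what the chimera or TA is, nor how it is expressed, nor whether a group is 1 clone, and p-values here measure the spread between these libraries.

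SESN3 encodes a sestrin, one of a family of stress-induced proteins that restrain the growth kinase complex mTORC1 through the GATOR complexes, and it is a known target of FOXO transcription factors. PMF1 encodes polyamine-modulated factor 1, a subunit of the MIS12 complex, which links centromeric chromatin to the microtubule-binding part of the kinetochore. The starts of active genes are usually free of nucleosomes and give ATAC-seq peaks, and a broad open promoter is often listed as several adjoining peaks, called flanks here.

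Positions are as the deposited lists give them, counted from 1. The windows were set on build hg19, while the submitters' processing notes name GRCh38. Around SESN3, 0 of 38 protein-coding gene starts of the RefSeq GRCh38.p14 table lay within 500 bp of a region called in all 6 lists, against 27 after 1 constant shift and at most 8 at other shifts. Around PMF1 the numbers were 19 of 203 as deposited, 70 after 1 shift and at most 41 elsewhere. After those shifts the start of each gene lay within 1 kb of its control-only region, and no coordinate of that table is given.

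The bases just before the 2 gene starts are shown because each start lay within 1 kb of its control-only region after the shift. The printed bases need not underlie that region. Both are 250 bases from RefSeq (GRCh38.p14), 5′ to 3′ on the gene's own strand, minus on chromosome 11 for SESN3 and plus on chromosome 1 for PMF1. Capitals mark the matches to CCAAT, the core of the NF-Y motif, and to GGGCGG, the GC box of SP and KLF factors.
SESN3: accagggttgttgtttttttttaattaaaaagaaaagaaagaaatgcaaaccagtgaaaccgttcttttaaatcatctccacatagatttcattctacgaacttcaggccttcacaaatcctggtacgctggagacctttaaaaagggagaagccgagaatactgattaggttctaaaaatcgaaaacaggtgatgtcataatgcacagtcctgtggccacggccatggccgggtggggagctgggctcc
PMF1: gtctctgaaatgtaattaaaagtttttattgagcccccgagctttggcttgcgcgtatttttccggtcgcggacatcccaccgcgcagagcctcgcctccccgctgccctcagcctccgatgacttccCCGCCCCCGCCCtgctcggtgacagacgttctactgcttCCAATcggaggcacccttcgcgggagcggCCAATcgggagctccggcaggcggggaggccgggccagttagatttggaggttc
Over 300 bases, these 250 and the first 50 transcribed, the SESN3 promoter was 45% G and C with 8 CpG dinucleotides, fewer than the median of 21 over 22198 coding promoters. The PMF1 promoter was 60.7% G and C with 26 CpG dinucleotides. PMF1 held 3 CCAAT matches on its own strand, beginning at positions -83, -54 and +29 from the start, and 2 adjoining GGGCGG matches on the other strand, at -122 and -116. At least 1 match on either strand to CCAAT stood in 34.7% of those promoters and to GGGCGG in 56.3%. SESN3 had 0 matches to either. Neither gene had a match on either strand to the other motifs searched. Of the coding promoters, 12.2% held the TEAD motif CATTCC, 12.8% the ETS motif CCGGAAG and 2.85% the forkhead motif GTAAACA that FOXO factors read. The TATA box, TATAAA, stood in 9.47%, the AP-1 motif TGANTCA in 6.15% and the cyclic AMP response element TGACGTCA in 2.26%.

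In all 3 control libraries a modest peak was listed at the SESN3 control-only region, and in the 3 chimera lists none was listed there. The merged region was chr11:94965335-94965739, 405 bp. The control peaks were 320, 395 and 242 bp wide in replicates 1, 2 and 3, with summits at 94965591, 94965591 and 94965595. The summits fell within a few bases of one another while the widths varied. The pileup, the number of fragments or cut sites stacked at the summit, was 67, 56 and 81. Divided by the library's median pileup over the 56679 regions called in all 6 lists, here called shared regions, this was 1.31, 1.37 and 1.25, a mean of 1.31 ± 0.06 (SD, n = 3). The SESN3 control-only peak was thus about as tall as an ordinary shared region. The authors' fold of pileup over local background was 3.53, 3.70 and 3.22, and the −log10 q was 16.0, 14.1 and 16.9.

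The peak beside the SESN3 control-only region was called in all 6 lists and was much taller. This flank, chr11:94964152-94964959, lay 375 bp from the control-only region on the side of lower coordinates, which is the direction of transcription for a gene on the minus strand. Its height did not separate the groups. The pileup was 229, 184 and 329 in control and 230, 216 and 265 in chimera libraries. Over the shared median this was 4.49, 4.49 and 5.06 in control (4.68 ± 0.33, SD, n = 3) and 4.79, 4.50 and 4.73 in chimera libraries (4.67 ± 0.15, SD, n = 3). Every chimera value lay within the control range. The fold was 12.1, 12.0 and 13.1 in control and 14.4, 12.7 and 13.6 in chimera lists, and the −log10 q was 159, 128 and 239 against 177, 155 and 197.

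The SESN3 flank was 1 peak in every list, so it did not split. It covered 693, 587 and 670 bp in control and 565, 711 and 582 bp in chimera lists, with overlapping groups. Its summits lay at 94964542, 94964542 and 94964572 in control and at 94964572, 94964573 and 94964573 in chimera lists, so control 3 shared the chimera position. The lower edge stood at 94964267, 94964291 and 94964209 against 94964288, 94964152 and 94964267, again overlapping. The upper edge, which faces the control-only region, stood at 94964959, 94964877 and 94964878 in control and at 94964852, 94964862 and 94964848 in chimera lists. Every chimera edge was lower than every control edge, with 15 bp between the nearest libraries. Such an order occurred for the upper edge in 6.61% of shared regions.

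**Figure D1:**
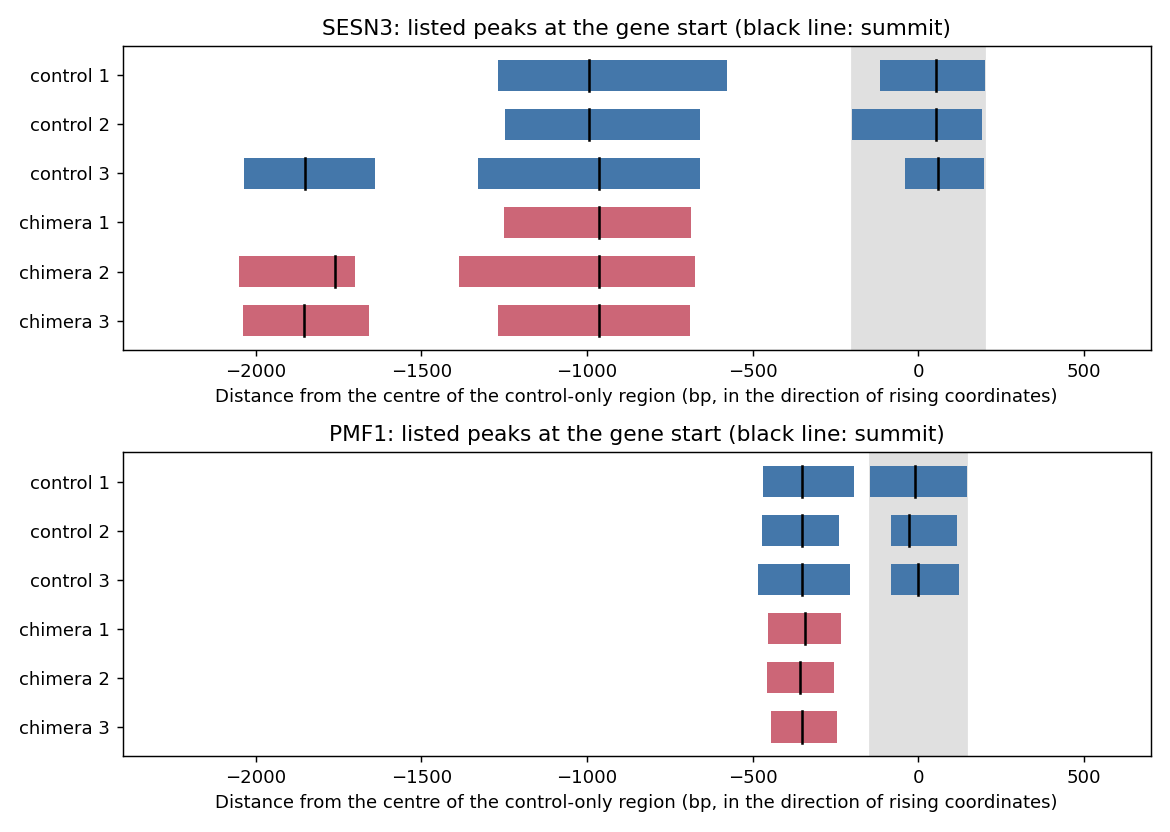
Listed peaks at the SESN3 and PMF1 starts in the 3 control (blue) and 3 chimera (red) lists, by distance in bp from the centre of the control-only region (grey band). Bars are peaks and black lines summits: the flank is 1 peak in every list at both genes, and the grey band holds peaks in the control lists alone.

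At the PMF1 start the control-only peak was taller but stood on a far higher local background. The merged region was chr1:156182944-156183235, 292 bp. The peaks were 292, 200 and 205 bp wide in control 1, 2 and 3, where 200 bp was the shortest peak in each of the 6 lists. The pileup was 161, 136 and 184, or 3.16, 3.32 and 2.83 times the shared median (3.10 ± 0.25, SD, n = 3). The height thus exceeded that of the SESN3 peak in every control library. The authors' fold was lower, at 3.18, 2.59 and 2.80, because it divides by a local background that was 49.9, 51.9 and 65.1 here and 18.2, 14.4 and 24.5 at SESN3. The −log10 q was 32.7, 19.3 and 30.6.

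The PMF1 flank, chr1:156182605-156182896, lay 47 bp from the control-only region, upstream of it for a gene on the plus strand. It was lower in the chimera libraries, with a pileup of 190, 171 and 239 in control and 167, 153 and 196 in chimera libraries. Over the shared median it was 3.73, 4.17 and 3.68 in control (3.86 ± 0.27, SD, n = 3) and 3.48, 3.19 and 3.50 in chimera libraries (3.39 ± 0.17, SD, n = 3). No chimera value reached the lowest control value, an order seen in 9.82% of shared regions. Over the genome background the ranges were 58.2 to 78.4 in control and 52.0 to 55.8 in chimera libraries, also without overlap. On this scale the share of shared regions with that order was not counted. The scale also moved the median of all shared regions by -0.21 (log2, chimera minus control), towards lower chimera values. The order on this scale is therefore no separate support for that over the shared median. The local background over the genome background was 19.8, 17.7 and 21.4 in control and 19.4, 20.0 and 20.5 in chimera libraries, so it overlapped. Over the shared median the local background was 0.981, 1.27 and 1.00 in control libraries (1.08 ± 0.16, SD, n = 3). In chimera libraries it was 1.30, 1.14 and 1.38 (1.27 ± 0.12, SD, n = 3), so the groups overlapped but the chimera mean was higher. The fold was 3.74, 3.25 and 3.63 in control and 2.65, 2.76 and 2.52 in chimera lists, and the −log10 q was 48.2, 35.5 and 58.4 against 25.0, 24.6 and 26.7.

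The PMF1 flank was also narrower in chimera lists, at 222, 202 and 200 bp against 277, 233 and 278 bp in control lists. The groups did not overlap, as in 7.9% of shared regions, and the chimera widths lay at or near the shortest width listed. Its lower edge, the one facing away from the control-only region, stood at 156182620, 156182618 and 156182605 in control and at 156182636, 156182634 and 156182646 in chimera lists. Every chimera lower edge was higher, with 14 bp between the nearest libraries, an order seen in 6.59% of shared regions. The upper edge stood at 156182896, 156182850 and 156182882 against 156182857, 156182835 and 156182845, and the groups overlapped. The summit did not move consistently: it was 156182738 in all 3 control lists and 156182746, 156182733 and 156182738 in chimera lists. The flank was 1 peak in each of the 6 lists. Over the series 0.256% of shared regions held more peaks in every chimera list than in every control list, and none of the 14 shared regions of the windows did. Height and width of a listed peak are not independent measures, since a lower pileup crosses the calling threshold over fewer bases.

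A peak missing from a list can still hold signal below the threshold, so the smallest pileup that could have been listed was computed from each chimera library's local background at the flank and the lowest −log10 p of its list. In the control libraries the local background at the flank and at the control-only peak were nearly equal, 18.0, 14.4 and 24.1 against 18.2, 14.4 and 24.5 at SESN3. At SESN3 that pileup was 29, 31 and 35 in chimera 1, 2 and 3, or 12.6%, 14.4% and 13.2% of the library's own flank. The control-only peak had reached 29.3%, 30.4% and 24.6% of the flank in control libraries. At PMF1 the smallest pileup was 89, 80 and 109, or 53.3%, 52.3% and 55.6% of the flank, against 84.7%, 79.5% and 77.0% reached by the control-only peak in control libraries. The limits lay below the control level at both genes. That order was largely set in advance, since the regions were chosen for being listed in all 3 control lists. The limit assumes a stretch of at least 200 bp, and a taller but shorter stretch would not be listed either. At PMF1 the peaks of control 2 and 3 were 200 and 205 bp wide, at or near that length. An absence there therefore need not mean a lower summit.

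**Figure D2:**
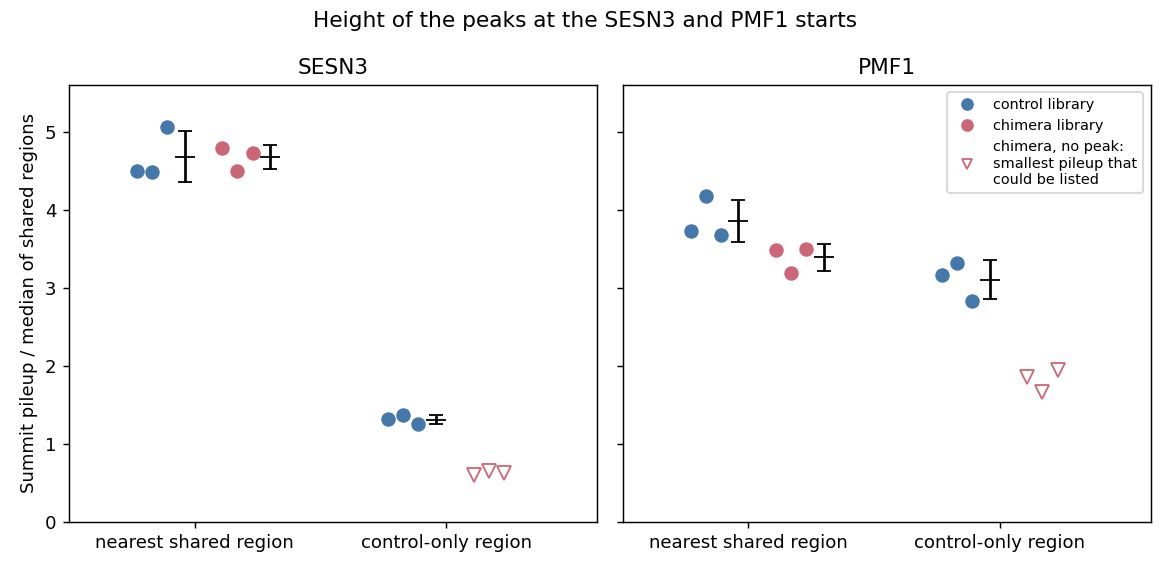
Summit pileup divided by the library's median over shared regions at the nearest shared region (flank) and at the control-only region, per library, with the mean and SD (black bars) of 3 libraries. Open triangles mark the smallest pileup that a chimera list could hold there. They lie at 0.604 to 0.646 for SESN3 and 1.67 to 1.95 for PMF1, below all 3 control values. That order was largely set in advance, since the regions were chosen for being listed in all 3 control lists.

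The PMF1 absence carries a limit of the files that the SESN3 absence does not. Peaks in these lists are numbered in order, and 370 to 472 numbers are skipped per list, at 108 to 121 places. In all 6 lists exactly 1 number is skipped between the last listed peak at the PMF1 start and the next listed peak, near 156195102. In the chimera lists that gap spans the control-only position, so 1 called peak per list that is not analysed here could lie at that position or elsewhere in the gap. PMF1 was the only 1 of the 1197 control-only regions beside such a skip, against 193 of 56679 shared regions (0.341%). No number is skipped in the SESN3 window.

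Among the 1197 control-only regions of the series, 0.799% of all regions, both starts were among those with the highest −log10 q and the highest background. By the lowest −log10 q of the 3 control lists PMF1 ranked 1 and SESN3 ranked 7, against a median of 5.36. The mean local background over the genome background was 19.6 at PMF1, which no other control-only region exceeded, and 6.71 at SESN3, which 25 exceeded, against a median of 1.34. The gap to the nearest shared region was 47 bp at PMF1 and 375 bp at SESN3, against a median of 8.68 kb, and 137 control-only regions (11.4%) lay within 500 bp of a shared one. The mean fold was 2.86 at PMF1 and 3.48 at SESN3, against a median of 4.35, so by fold both were in the lower part. A lower fold was seen in 58 control-only regions for PMF1 and in 226 for SESN3. The members were chosen by the lists behind these ranks, which are therefore a description.

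**Figure D3:**
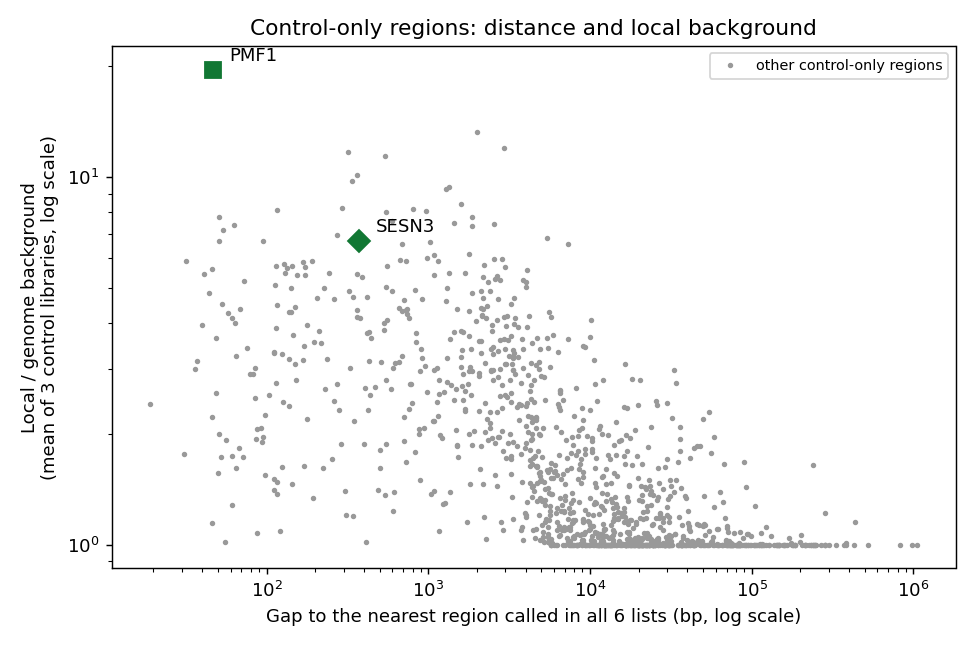
Each point is 1 of the 1197 control-only regions, by its gap in bp to the nearest shared region and its local background over the genome background (mean of 3 control libraries), both on log scales. PMF1 (47 bp, 19.6) has the highest background of all, and SESN3 (375 bp, 6.71) lies among the higher ones.

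Counted base by base within 3 kb of the control-only regions, most bases that separated the groups were those of the control-only regions themselves, by which the genes were chosen. At SESN3, 250 bases were covered in all 3 control lists and in no chimera list, the longest stretch being chr11:94965495-94965729 (235 bp). At PMF1 there were 214 such bases, the longest stretch being chr1:156183007-156183206 (200 bp). At either gene 0 bases were covered in all 3 chimera lists and no control list, while 558 bases at SESN3 and 190 at PMF1 were covered in all 6. No share over all shared regions is given for these counts, so they have no baseline and are a description. One further region stood near the SESN3 flank, chr11:94963487-94963896, called in control 3, chimera 2 and chimera 3, with a pileup of 51, 36 and 50.

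Over the whole windows, the numbers of peaks overlapped between the groups. The SESN3 window held 14, 12 and 18 peaks in control and 11, 14 and 15 in chimera lists, a difference in means of -1.33 (exact permutation over libraries, p = 0.7). These tests were two-sided, and 6 libraries in groups of 3 cannot reach a p under 0.1. The PMF1 window held 10, 10 and 10 peaks in control and 8, 10 and 8 in chimera lists, also a difference of -1.33 (exact permutation p = 0.4). Covered length was 5011, 3670 and 6336 bp in control and 4288, 5756 and 5361 bp in chimera lists around SESN3 (difference 129 bp, exact permutation p = 0.9). Around PMF1 it was 6033, 4549 and 5329 bp against 4680, 4854 and 4415 bp (difference -654 bp, exact permutation p = 0.3). The groups overlapped in all of these totals but none of the tests could reach a p under 0.05, and the totals include the peaks that chose the genes.

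**Figure D4:**
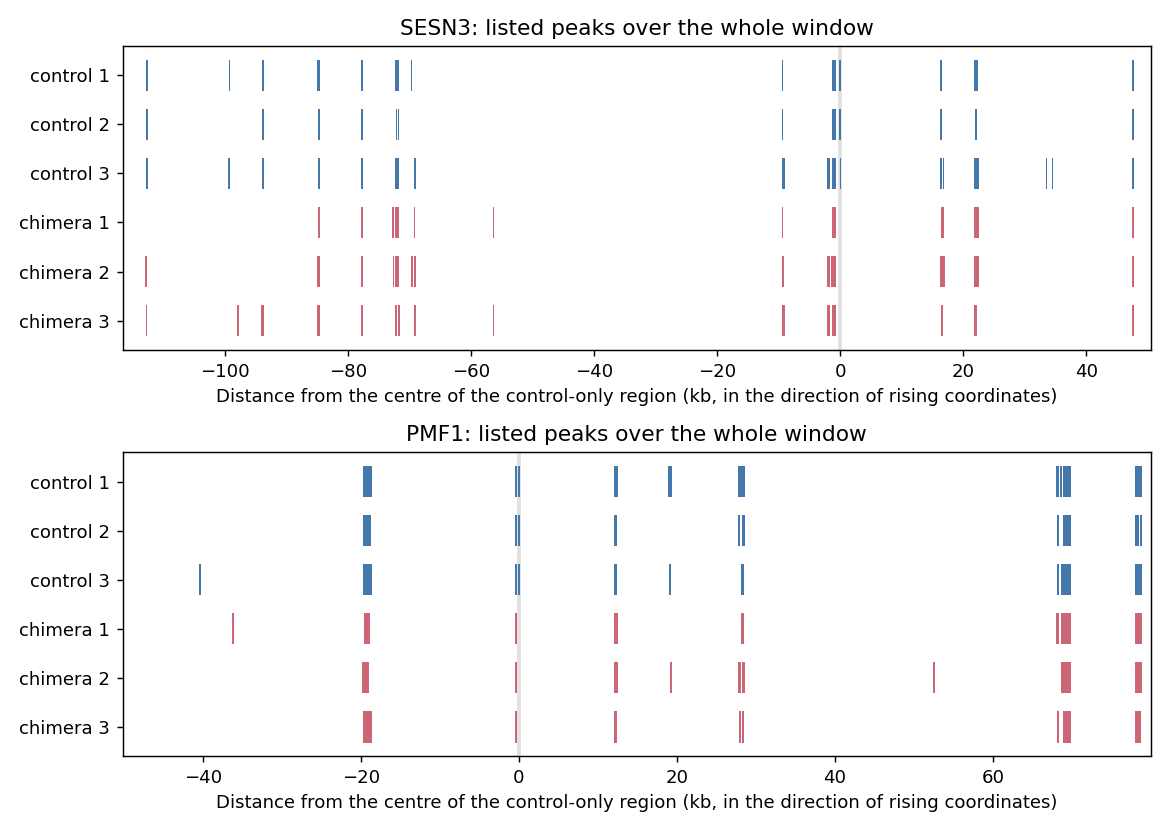
Listed peaks over the whole SESN3 and PMF1 windows in the 6 lists, by distance in kb from the centre of the control-only region (grey band); narrow peaks are drawn at least 0.25 kb wide. Most peaks recur in control (blue) and chimera (red) lists, and the 2 windows hold 8 and 6 shared regions.

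By pattern, the SESN3 window held 8 shared regions, 1 control-only region, 0 chimera-only regions and 11 others, and the PMF1 window 6, 1, 0 and 5. Just outside the control-only rule lay chr11:94871475-94871880, called in 3 control lists and in chimera 3, with a pileup of 21, 22 and 27 in control and 28 in chimera 3. Also just outside were chr11:94866149-94866460, called in control 1 and 3 (pileup 20 and 23), and chr11:94852540-94853045 and chr1:156251071-156251417, each called in 3 control and 2 chimera lists. In the opposite direction, chr11:94896267-94896590 was called in control 3 and all 3 chimera lists, with a pileup of 33 against 28, 37 and 45. The SESN3 regions chr11:94892779-94893075 and chr11:94909083-94909327 were called in 2 chimera lists and no control list. The peaks of these 7 borderline regions were 0.246 to 0.882 times as tall as the median shared region, below every control peak at the 2 starts.

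The 12 shared regions away from the starts, 7 around SESN3 and 5 around PMF1, were tested within a fit of limma over all 56679 shared regions. The covered length differed in none of the 12, and in 0 of all shared regions (0%; 3826 had an unadjusted p below 0.05). The largest difference in the windows was at chr11:94981807-94982583, 258, 244 and 427 bp in control against 492, 777 and 459 bp in chimera lists (log2 difference 0.90, SE 0.31, limma adjusted p = 0.661). The summit position, the lower edge and the upper edge also passed the test in none of the 12, against 174 (0.307%), 56 (0.0988%) and 97 (0.171%) of all shared regions. The widest regions were not called for any of these measures. Around SESN3 this was chr11:94987262-94988121 (860 bp), with a pileup of 114, 82 and 142 in control and 94, 95 and 142 in chimera libraries. Around PMF1 it was chr1:156251560-156252938 (1379 bp), with 145, 100 and 162 against 112, 99 and 124.

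The summit pileup over the shared median, a test added after the data were seen, passed in 1 of the 12, against 1441 of all shared regions (2.54%, 747 higher and 694 lower in chimera libraries). The region was chr11:94956045-94956628, 8706 bp from the SESN3 control-only region. Its pileup was 17, 14 and 36 in control, near the lowest listed pileup of 10 in control 1 and 2, and 34, 38 and 38 in chimera libraries. Over the shared median the pileup was 0.333, 0.341 and 0.554 against 0.708, 0.792 and 0.679. Every chimera library lay above every control library. The share of shared regions with that order was not counted, while the opposite order stood in 9.82% of them. The log2 difference was 0.86 (SE 0.24, limma adjusted p = 0.0333). Over its alternatives the adjusted p ranged from 0.0188 to 0.457: the call was lost in 5 of the 6 fits without 1 library (all but that without control 3), where the log2 difference was 0.74 to 0.91, and with pileup over the genome background (log2 difference 0.66, adjusted p = 0.457). Around PMF1, chr1:156210790-156211665 had the lowest value (pileup 37, 42 and 60 against 24, 25 and 42, log2 difference -0.60, SE 0.22, limma adjusted p = 0.136) and did not pass.

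**Figure D5:**
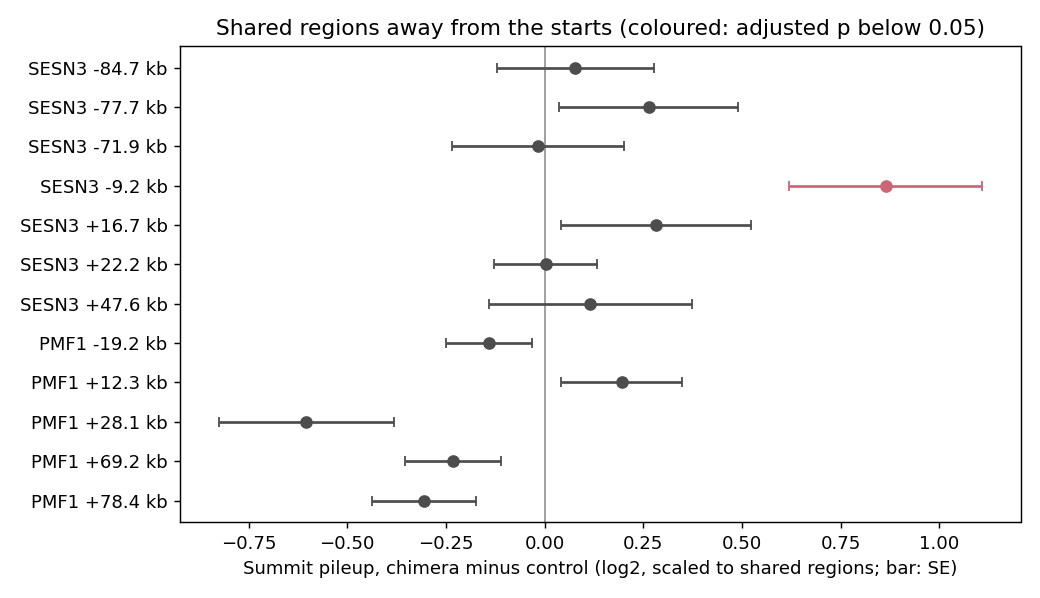
Difference in log2 summit pileup over the shared median, chimera minus control, with its SE from limma, for the 12 shared regions away from the starts, labelled by gene and by distance in kb from the control-only centre. The SESN3 region at -9.2 kb (0.86) is the only one with an adjusted p below 0.05. Of the 5 PMF1 regions 4 lie below 0 and none passed, beside a median of -0.0055 over all shared regions.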

How the data were processed

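ATAC-seq was done on 6 libraries, 3 per group. Each library had its own deposited MACS2 peak list. The authors' columns are a ratio (fold over local background, +1 on both sides as MACS2 defines it), the −log10 p and q, and a score not used in tests. HOMER 4.9 and GRCh38 are named per the submitters' processing notes without a role; for the aligner and MACS2 settings the sources used here say nothing.

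The members and lists were chosen with earlier results of these data known. Pileup and local background were recovered by solving MACS2's fold and Poisson p for each peak (tolerance 0.005) for 100% of peaks, whose genome background was 2.53 to 3.77. Peaks on 23 chromosomes were merged where they shared 1 bp. Every region of the windows was counted, those within 3 kb of a control-only region were given per library, and the widest shared region of each window was named. Regions named for their values were singled out after seeing them. limma 3.58.1 (trend, robust, Benjamini-Hochberg, 0.05, no block) in R 4.3.3 was tested on simulated data, as was the recovery. Alternatives changed merging, thresholds, list length, scaling, block and libraries. The planned counts over sestrin, GATOR and kinetochore genes needed an annotation of the files' build and were not run.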

Additional observations from a re-analysis of the deposited data

How the results depend on the processing

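The SESN3 control-only region was present in every setting except merging of peaks up to 500 bp or 1 kb apart, where 0 of the 2 control-only regions of the windows were left because both joined their flanks. With peaks up to 100 bp apart merged, 1 was left (SESN3), since the PMF1 region lies 47 bp from its flank. With windows of 250 bp either side of the summit, 1 was also left (SESN3). There the PMF1 windows overlapped, since the control-only and flank summits lay 323 to 349 bp apart in control lists, against 1023 to 1049 bp at SESN3. The count was 2 with a −log10 q of at least 5 or 10, with lists of equal length and with 50% cover, 3 with 2 of 3 against 0 of 3, and 2 to 3 without 1 library.

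The difference in peaks of the SESN3 window ran from -2.67 to 0.333 without 1 library, turning sign without control 3. That in covered bp was -14.7 with −log10 q of at least 5 and ran from -538.5 to 794.5 without 1 library, turning sign without control 2 (-538.5) and chimera 2 (-181.2). In the PMF1 window the difference in peaks stayed negative, at -1.67 and -2 with −log10 q of at least 5 and 10 (exact permutation p = 0.1 each, the smallest possible), -0.667 with lists of equal length (exact p = 1), and -2 to -1 without 1 library (exact p = 0.1 without chimera 2). That in covered bp ran from -1031 without control 2 (exact p = 0.1) to -289 without control 1 (exact p = 0.5), and was -354 with lists of equal length (exact p = 0.2). All these PMF1 differences include the control-only peak, present in every control list and no chimera list by the choice of the gene. That peak alone adds -1 to each difference in peaks, more than the whole difference with lists of equal length. The negative sign and the p-values were thus partly set in advance and are no support. No distal region of the windows was called for covered length, summit or edges in any setting run. For pileup, 1 was called with all libraries, 0 to 1 without 1 library, and 0 with a −log10 q of at least 10 (the region did not enter that fit) and over the genome background, a scaling that moved the median of all shared regions by -0.21 (log2). Over all shared regions the calls ranged from 29 to 304 for summits, 0 to 141 for lower edges, 0 to 157 for upper edges and 688 to 1448 for pileup, with 76 over the genome background; the cause was not tested.

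Libraries with the same replicate number did not deviate together (correlations of -0.0032, 0.0003 and 0.0015). Fitted with a replicate block, the differences in peaks had exact p-values of 0.5 (SESN3) and 0.5 (PMF1), those in covered bp 1 and 0.5 (the smallest possible is 0.25), and the pileup call had an adjusted p of 0.0346 in limma.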
